A study of Mus musculus with 2 samples.

Results

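The genes described here are the amyloid precursor family and the proteases that cut it, 9 genes chosen by name from a table of 69691 rows: App, Aplp1, Aplp2, Adam10, Bace1, Psen2, Ncstn, Aph1a and Psenen. All 9 were found by their Ensembl identifier. They were read in total RNA from newborn (postnatal day 0) midbrain of B6NCrl mice. There is 1 group with 2 animals, called pup 1 and pup 3, each giving a single midbrain and 1 library. The labels name no treatment and no engineered allele, list 1 donor identifier for both pups and leave sex unrecorded. With no second group, every value below is a level, a ratio within a library or a difference between the animals, and none has a p-value, since an exact sign-flip test over 2 animals cannot go below 0.5.

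App and its paralogs Aplp1 and Aplp2 are membrane proteins with a large outer part and a short cytoplasmic tail. In the nonamyloidogenic route an alpha-secretase, mainly Adam10 in neurons, cuts off the outer part within the amyloid-beta sequence, and in the other route Bace1, the beta-secretase, cuts at the start of that sequence. The membrane stub is then cut by gamma-secretase, a complex of a catalytic presenilin (Psen2 is one), nicastrin (Ncstn), Aph1 and the presenilin enhancer (Psenen). The precursors take part in cell adhesion, neurite growth and synapse formation, and the same proteases process many other neuronal membrane proteins.

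Summed expected counts, which are estimates of the reads assigned to each gene, were 36934868 in pup 1 and 40769103 in pup 3. Neuronal markers were present in both libraries (5 of 5 at 1 TPM or more, summed 3976 TPM in pup 1 and 3811 in pup 3). Tubb3 led them at 1694 ± 83.8 TPM. Midbrain markers were also present (6 of 6), from Tcf7l2 at 685 ± 57.5 TPM down to En1 at 8.21 ± 0.552. Of 4 Hox genes of hindbrain and cord, 3 (Hoxa2, Hoxb4 and Hoxa5) gave 0 counts in either pup, which allows up to 3, and Hoxc5 gave 2 and 1. The 7 markers of hypothalamus and forebrain summed to 41.8 TPM in pup 1 and 91.3 in pup 3, led by Six3 at 21.9 ± 2.81. Since tissue RNA was read, fewer cells of a type and less RNA per cell cannot be told apart.

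The sequences that separate the forms of these genes are exons that 1 annotated form holds and another lacks, and each set is shown because a transcript share below turns on it. All were read from the GENCODE M21 transcripts, 5′ to 3′ on the gene's strand, with mm10 positions. The shares come from the earlier release M4. The lengths of some transcripts differ between the releases, among them ENSMUST00000056710 of Aph1a. The Kunitz exon, which encodes a protease inhibitor domain, has 168 bases in App (chr16:85043576-85043743, minus strand, exon 7 of 17 of ENSMUST00000226232) and in Aplp2 (chr9:31167561-31167728, minus strand, exon 7 of 17 of ENSMUST00000072634). Both lie wholly in the coding sequence. Capitals mark the 114 of 168 bases (67.9%) that are the same in both when they are laid side by side without gaps, and 38 of the 56 residues they encode are also the same (67.9%).
App Kunitz exon: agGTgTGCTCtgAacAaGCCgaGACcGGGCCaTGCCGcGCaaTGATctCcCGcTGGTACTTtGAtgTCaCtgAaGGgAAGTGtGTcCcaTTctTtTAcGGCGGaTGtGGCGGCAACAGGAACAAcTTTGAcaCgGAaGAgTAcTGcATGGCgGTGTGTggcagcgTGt
Aplp2 Kunitz exon: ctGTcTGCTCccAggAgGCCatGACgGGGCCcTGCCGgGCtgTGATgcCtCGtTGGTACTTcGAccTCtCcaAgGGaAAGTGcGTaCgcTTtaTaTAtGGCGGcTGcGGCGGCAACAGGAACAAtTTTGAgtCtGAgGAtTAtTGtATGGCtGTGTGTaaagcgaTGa

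The other Aplp2 form in the tables lacks the Kunitz exon and holds instead a 36-base exon (chr9:31156190-31156225, exon 13 of 17 of ENSMUST00000079758). The 12 residues it adds are known to interrupt the site where a chondroitin sulfate chain is attached. Bace1 has a 102-base exon (chr9:45858400-45858501, plus strand, exon 6 of 9 of ENSMUST00000034591) that the shorter form skips, and its capitals mark the codons of the second aspartic protease motif. In Psen2 the capitals mark 3 bases at the start of an exon (chr1:180229386-180229487, minus strand, exon 9 of 11 of ENSMUST00000111108) that a form of 447 residues leaves out. In Aph1a, 62 coding bases (chr3:95896694-95896755, plus strand, the last exon of ENSMUST00000056710) end the longer of 2 forms.
Aplp2 short exon: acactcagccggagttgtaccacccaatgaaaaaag
Bace1 skipped exon: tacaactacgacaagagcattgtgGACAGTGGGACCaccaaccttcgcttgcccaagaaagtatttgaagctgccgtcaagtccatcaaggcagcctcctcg
Psen2 exon: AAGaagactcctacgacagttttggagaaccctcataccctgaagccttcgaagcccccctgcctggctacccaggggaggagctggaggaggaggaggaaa
Aph1a coding end: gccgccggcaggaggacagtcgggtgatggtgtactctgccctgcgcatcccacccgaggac

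The 3 precursor genes were the highest of the 9, and Aplp1, the family member restricted largely to neurons, led them. Levels are TPM, the deposited transcript abundance after division by length, as mean ± SD over the 2 pups. Aplp1 (ENSMUSG00000006651.7, chr7:30434982-30445535, minus strand) measured 673 TPM in pup 1 and 668 in pup 3 (671 ± 3.47, SD, n = 2). App (ENSMUSG00000022892.10, chr16:84949685-85173766, minus strand) measured 442 TPM in pup 1 and 436 in pup 3 (439 ± 4.12). Aplp2 (ENSMUSG00000031996.12, chr9:31149557-31211815, minus strand), which is widely expressed outside the brain as well, measured 264 TPM in pup 1 and 249.6 in pup 3 (257 ± 10.4). The values of the 3 genes did not overlap, and each gene was nearly level between the animals.

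Together the precursors summed to 1379 TPM in pup 1 and 1354 in pup 3. Aplp1 held 49.1% ± 0.391 of that sum, App 32.1% ± 0.121 and Aplp2 18.8% ± 0.512. Aplp1 therefore held nearly as much as both of its paralogs combined in each pup. Among 21473 protein-coding genes, 99.3% had a lower mean TPM than Aplp1, 98.6% than App and 97.2% than Aplp2. The depth was large, with 30952 and 33364 expected counts for App and at least 21304 for Aplp2 in either pup, and all 3 genes had whole counts (within 0.005), as a gene has when none of its reads are divided with another gene.

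The annotated proteins differ in length and are related over most of it. Translated from the M21 coding sequences, App had 695 residues, Aplp1 654 and Aplp2 707. In global alignments App shared 49.8% of aligned columns with Aplp2 and 38.0% with Aplp1, and Aplp1 shared 40.7% with Aplp2. The longest stretch common to all 3 was 7 residues and occurred at 2 places, one of them at residues 681 to 687 of the 695 in App. That stretch lies in the cytoplasmic tail, where adaptor proteins bind.

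**Figure D1:**
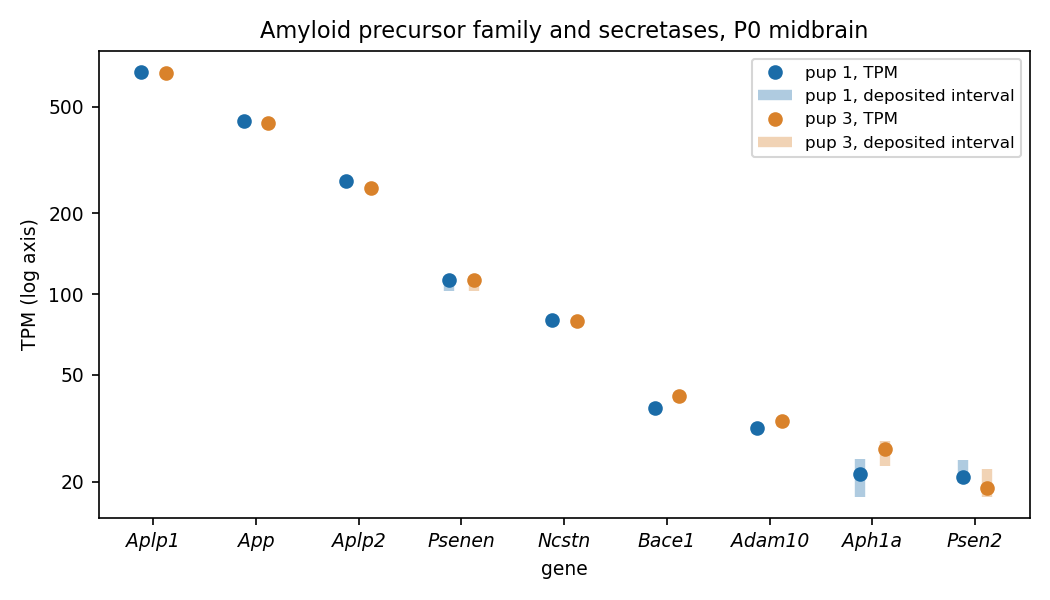
TPM of each gene (log axis) in pup 1 (blue) and pup 3 (orange), with the deposited credibility interval of the posterior mean TPM as a pale bar behind each point. The precursors lie at 249.6 TPM and above, Psenen and Ncstn between 79.5 and 113, and the other 4 genes below 42 TPM, with the widest bars for Aph1a and Psen2.

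The alpha- and beta-secretase genes were close to each other and far below their substrates. Bace1 (ENSMUSG00000032086.8, chr9:45838580-45864399, plus strand) measured 37.8 TPM in pup 1 and 41.8 in pup 3 (39.8 ± 2.85). Adam10 (ENSMUSG00000054693.10, chr9:70678997-70780229, plus strand), which also sheds Notch and cadherins, measured 31.8 TPM in pup 1 and 33.7 in pup 3 (32.7 ± 1.35). Bace1 was higher than Adam10 in both pups, 1.19-fold in pup 1 and 1.24-fold in pup 3, and the deposited intervals did not overlap in either. This gap is small, and it includes Bace1 transcripts annotated as noncoding, described below. The summed precursor TPM was 41.8 ± 2.27 times that of Adam10 and 34.5 ± 2.92 times that of Bace1.

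Ratios within a library are log2 of TPM after 0.1 was added to each value, and a pair was called apart where both pups gave the same sign, their mean was larger in size than 1 and than 3 SD, and the deposited intervals overlapped in neither pup. App exceeded Adam10 by 3.74 ± 0.073 on this log2 scale and Bace1 by 3.46 ± 0.12, and both pairs were apart. Bace2, a paralog of Bace1 that is known mainly outside neurons, measured 1.45 TPM in pup 1 and 1.36 in pup 3. Bace1 held 96.6% ± 0.386 of the summed TPM of both paralogs, a log2 ratio of 4.73 ± 0.16. Among the other sheddases of the Adam family, Adam9 was at 16.1 ± 0.933 TPM and Adam17 at 8.78 ± 0.0990.

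Adam10 thus held 56.8% ± 1.83 of the TPM of the 3 Adam genes. It exceeded Adam17 by 3.65-fold in pup 1 and 3.81-fold in pup 3, and this pair was apart. Over Adam9 it was higher by 1.89-fold in pup 1 and 2.18-fold in pup 3. That call rested on pup 3, since the log2 ratio was 0.92 in pup 1, below the threshold of 1, and 1.12 in pup 3. It was also lost with a pseudocount of 1.

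The 4 gamma-secretase subunit genes were not at equal levels, although the complex holds 1 copy of each subunit. Psenen (ENSMUSG00000036835.6, chr7:30561863-30563627, minus strand), the smallest subunit, was at 113 TPM in both pups (113 ± 0.0849). Ncstn (ENSMUSG00000003458.8, chr1:172066013-172082795, minus strand), the glycoprotein that admits substrates, measured 79.9 TPM in pup 1 and 79.5 in pup 3 (79.7 ± 0.311). Aph1a (ENSMUSG00000015750.11, chr3:95893969-95898288, plus strand), the scaffold, measured 21.4 TPM in pup 1 and 26.5 in pup 3 (24.0 ± 3.62). Psen2 (ENSMUSG00000010609.11, chr1:180227004-180263438, minus strand) measured 20.8 TPM in pup 1 and 19.0 in pup 3 (19.9 ± 1.30). The first 2 genes stood well above the last 2 in both animals.

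Psenen exceeded Psen2 by a log2 TPM ratio of 2.50 ± 0.095 and Aph1a by 2.23 ± 0.22, and Ncstn exceeded Psen2 by 2.00 ± 0.088. Aph1a over Ncstn was at -1.74 ± 0.22. These 4 pairs were apart. Psenen exceeded Ncstn by 0.50 ± 0.0067, below the threshold of size, but in both pups and with intervals that did not overlap. The Psenen ratios depend on division by its short length. With counts not divided by length, Psenen over Psen2 was at 0.97 and over Aph1a at 0.21, neither apart, and over Ncstn it turned to -1.74. Aph1a and Psen2 could not be ordered. Their log2 ratio was 0.04 in pup 1 and 0.48 in pup 3, and their intervals overlapped in pup 1, at 17.6 to 24.4 TPM for Aph1a and 19.7 to 24.1 for Psen2.

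Mice carry further Aph1 genes in tandem on chromosome 9, Aph1b and Aph1c, whose annotated proteins shared 95.3% of aligned columns with each other and 56.6% and 55.8% with Aph1a. Aph1b was at 13.0 ± 0.156 TPM and Aph1c at 2.80 ± 0.0424, and neither had whole counts, as a gene has when reads are divided with another. The posterior SD of the count was 4.25 in pup 1 and 4.22 in pup 3 for both, on 117 and 135 expected counts of Aph1c. Aph1a held 57.7% of the TPM of the 3 paralogs in pup 1 and 62.6% in pup 3. Over Aph1b its log2 ratio was 0.73 in pup 1 and 1.01 in pup 3, not apart, and over Aph1c it was 3.05 ± 0.24, apart.

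**Figure D2:**
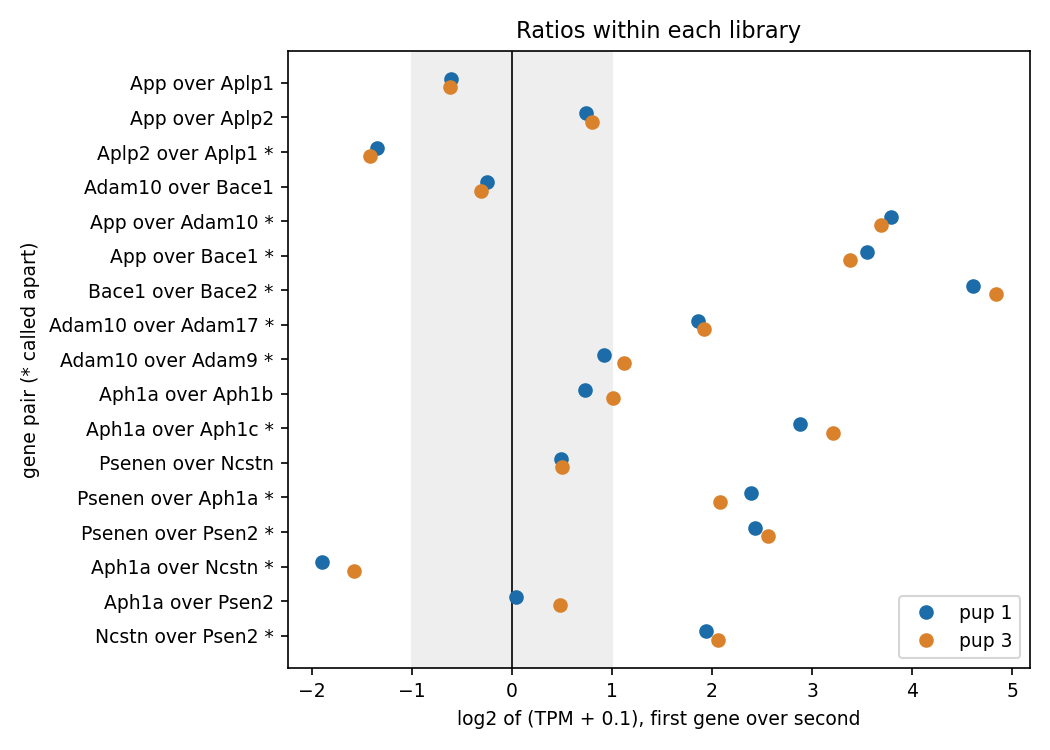
Log2 of (TPM + 0.1) of the first gene over the second for 17 preset pairs, in pup 1 (blue) and pup 3 (orange), with the range from -1 to 1 shaded and an asterisk at each of the 11 pairs called apart. The largest ratio is Bace1 over Bace2 at 4.61 and 4.84, and Aph1a over Psen2 lies nearest to 0 in pup 1.

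Over all 9 genes the order by mean TPM was Aplp1, App, Aplp2, Psenen, Ncstn, Bace1, Adam10, Aph1a and Psen2. For 6 of the 8 neighbouring pairs the higher gene was higher in both pups, by more than 3 SD and with separate intervals. The exceptions were Adam10 over Aph1a, at log2 0.57 in pup 1 and 0.34 in pup 3, and Aph1a over Psen2. All 9 reached 10 TPM in each pup, as did 39.2% of protein-coding genes, and 4 of 9 reached 100 TPM, as did 7.85%. The median of the 9 was 79.9 TPM in pup 1 and 79.5 in pup 3, beside 17.5 and 18.0 for the 13342 protein-coding genes that reached 1 TPM in each. The genes were listed because they are known in brain, so this position is a description.

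The 3 protein-coding genes whose TPM lay nearest to App over the 2 libraries were Rps16, a ribosomal protein gene (439 ± 0.481 TPM), Gabarap, an autophagy and receptor trafficking gene (434 ± 6.10), and Ptn, a heparin-binding growth factor gene (436 ± 10.5). The larger of their 2 gaps to App was 0.0124, 0.0220 and 0.0254 on the log2 scale. With 2 libraries such nearness is one of level alone.

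Transcript shares, the percent of a gene's TPM given to each annotated transcript, could be read for 6 of the 9 genes, since App, Aplp1 and Psenen each had 1 transcript in the tables. The App transcript (ENSMUST00000005406.10) encodes the 695-residue form without the Kunitz exon, the form known from neurons. The later annotation M21 lists 11 App transcripts, 6 of them coding, so the Kunitz forms were not separated here, and where reads of the App exon printed above were counted was not tested. The leading transcript was the same in both pups for all 9 genes.

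Aplp2 was divided between its 2 forms. The 707-residue form, with the 36-base exon and without the Kunitz exon, held 55.7% of TPM in pup 1 and 53.3% in pup 3 (54.5% ± 1.73). The 751-residue form, with the Kunitz exon, held 44.3% and 46.7% (45.5% ± 1.73). The smaller share thus carried the inhibitor domain, by 147 against 117 TPM in pup 1 and 133 against 117 in pup 3, and the deposited intervals of the 2 transcripts did not overlap in either pup. The tables hold no form that differs in 1 of these exons alone, so the exons have no separate shares. M21 lists 4 coding transcripts of Aplp2 and the tables hold 2.

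Bace1 was led by the full-length form of 501 residues (ENSMUST00000034591.6), at 48.5% of TPM in pup 1 and 50.4% in pup 3. The 467-residue form, which skips the 102-base exon shown above, held 23.3% in pup 1 and 14.6% in pup 3. Translated, the full-length form has aspartic protease motifs (aspartate, threonine or serine, glycine, then serine or threonine) at residues 93 and 289, and the 467-residue form has the one at 93 alone. A transcript annotated as a retained intron (ENSMUST00000159970.1) held a further 27.4% in pup 1 and 34.7% in pup 3. Coding transcripts therefore carried 27.1 TPM of Bace1 in pup 1 and 27.3 in pup 3, and these sums were closer between the pups than the gene's total.

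Coding transcripts of Bace1 thus lay below the 31.7 and 33.6 TPM of coding Adam10 transcripts, whereas the gene totals had the opposite order. Adam10 had 1 dominant transcript, the 749-residue form, at 99.8% ± 0.0354. In Ncstn the 708-residue form held 85.5% ± 0.141. The rest of Ncstn was given to transcripts annotated as retained introns or as targets of nonsense-mediated decay, 14.6% in pup 1 and 14.4% in pup 3.

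Psen2 and Aph1a had the shares that moved most between the animals. Of Psen2, ENSMUST00000111108.5 (448 residues) held 50.4% in pup 1 and 60.7% in pup 3. From posterior mean TPM its share was lower, at 40.4% in pup 1 and 50.1% in pup 3. ENSMUST00000111105.3, also of 448 residues, held 7.75% and 9.40%, and transcripts annotated as noncoding held 12.3% and 16.6%. ENSMUST00000111104.1 (447 residues), which starts the printed exon 3 bases later and has 10 exons in place of 11, held 29.6% in pup 1 and 13.2% in pup 3. Of Aph1a, the 247-residue form held 82.3% in pup 1 and 62.7% in pup 3, and the 265-residue form 17.7% and 37.3%. The deposited TPM intervals of that last form overlapped between pups, from 0.000327 to 6.93 in pup 1 and from 6.34 to 12.3 in pup 3. Those of the 447-residue Psen2 form overlapped too, from 3.05 to 8.01 in pup 1 and from 0.382 to 4.34 in pup 3. For both forms the TPM of each pup lay outside the other pup's interval. It was 3.80 in pup 1 and 9.91 in pup 3 for the Aph1a form, and 6.16 and 2.51 for the Psen2 form. Whether either shift exceeds the estimate's own uncertainty was not tested.

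**Figure D3:**
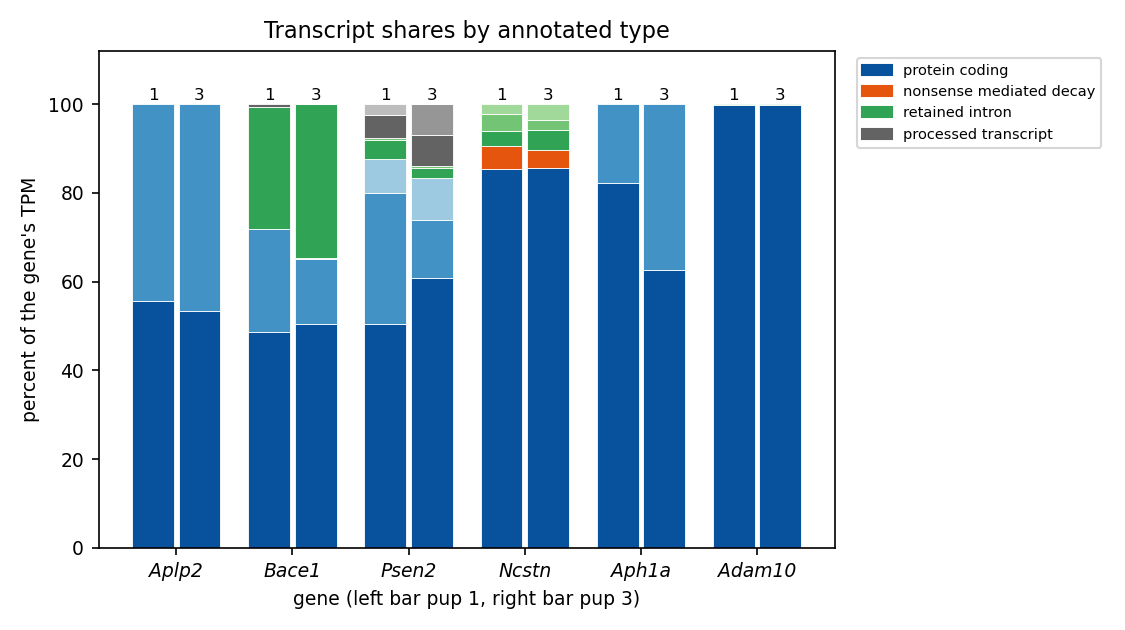
Percent of each gene's TPM given to its transcripts in pup 1 (left bar) and pup 3 (right bar), coloured by annotated type, with a shade for each transcript. Bace1 has the largest retained-intron share, 27.4% and 34.7%, and Adam10 is almost wholly 1 coding transcript.

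Between the animals the 9 genes differed about as much as other genes of their depth. Of the 13318 genes whose expected counts averaged at least 100, 3.18% differed by more than 0.5 on the log2 TPM scale and 0.315% by more than 1, and 0 of the 9 passed either size, which is near those shares. The median size of the difference was 0.0824 over the 9, 0.11 over the 13318 and 0.0868 over the 7262 genes whose expected counts averaged at least 1000. Pup 3 minus pup 1 was -0.02 for App, -0.01 for Aplp1 and -0.08 for Aplp2. It was 0.08 for Adam10 and 0.15 for Bace1.

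Among the gamma-secretase subunits the difference ranged from -0.13 for Psen2 to 0.31 for Aph1a. For Aph1a the expected counts, 1206 and 1387, gave a smaller difference of 0.05 after scaling by edgeR's TMM factors. Its effective length, by which the TPM divides, was 2434 bases in pup 1 and 2068 in pup 3, beside the larger share of the shorter transcript in pup 3. The deposited intervals were separate between pups for 2 of the 9 genes, Aplp2 (254 to 261 TPM in pup 1, 241 to 247 in pup 3) and Bace1 (35.7 to 39.3 in pup 1, 39.8 to 43.1 in pup 3). The same held for 20.3% of the 13318 genes and 28.5% of the 7262 deeper ones, so 2 of 9 is near the background. These intervals cover the estimate within a library and not the spread between animals. The hypothalamic and forebrain markers, which summed to 91.3 TPM in pup 3 and 41.8 in pup 1, also differed. All of those tested were higher in pup 3, by 2.23 for Oxt, 1.59 for Six6, 1.53 for Hcrt, 1.41 for Dlx2, 1.27 for Dlx1 and 0.26 for Six3. A size of 1 was passed by 0.315% of the 13318 genes. Tbr1, with 6 expected counts in pup 1 and 46 in pup 3, fell below the minimum. Astrocyte and radial glia markers summed to 3160 TPM in pup 1 and 2945 in pup 3, with differences from -0.45 for Aldoc to 0.02 for Slc1a3 and -0.04 for Fabp7, the highest of the 5. Midbrain markers moved both ways, with Th at -0.42, En1 at -0.14, Gata3 at -0.09, Slc17a6 at -0.03, Otx2 at 0.03 and Tcf7l2 at 0.17. The part of these markers in the differences of the 9 genes was not tested.

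**Figure D4:**
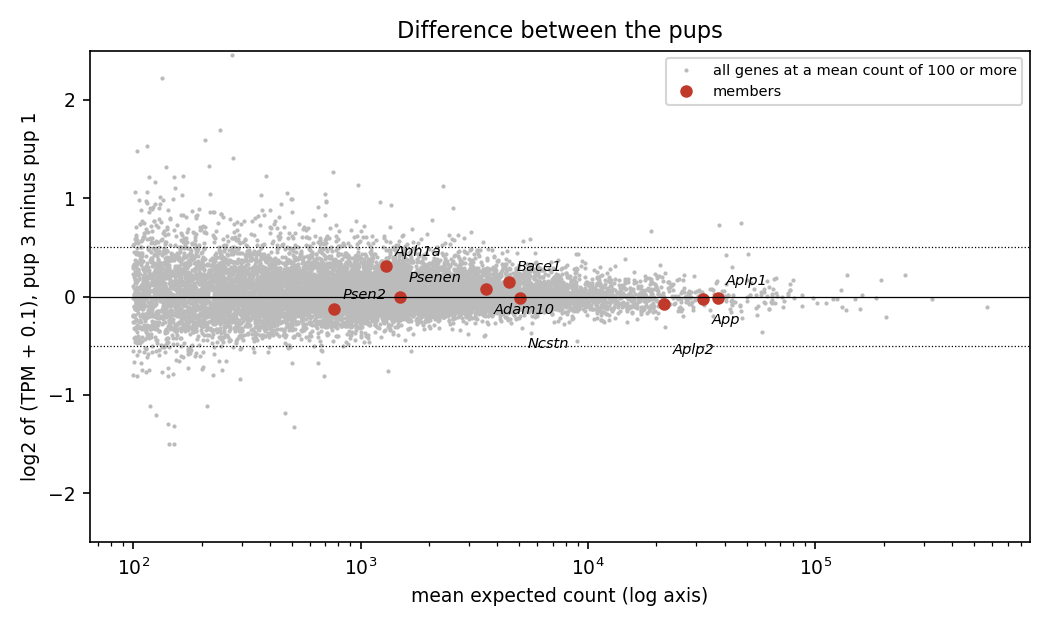
Difference between the pups, log2 of (TPM + 0.1) in pup 3 minus pup 1, against mean expected count (log axis) for 13318 genes (grey) and the 9 members (red), with dotted lines at 0.5 in either direction. All 9 lie between the lines, and 7 grey genes fall outside the plotted range.

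Some of the 9 genes overlap others on the opposite strand, and use of the strand in counting is not given in the sources used here. In M21, exons of Psenen share 119 bases with U2af1l4, a splicing factor gene at 86.4 TPM in pup 1 and 87.4 in pup 3. The Psenen counts were not whole, with a posterior SD of 28.78 in pup 1 on 1428 expected counts and of 29.74 in pup 3 on 1562. Those of Aph1a, Bace1 and Ncstn were not whole either. Their posterior SD in pup 1 and pup 3 was 32.76 and 24.49 for Aph1a, 14.10 and 15.41 for Bace1, and 2.95 and 2.86 for Ncstn. Exons of Bace1 share 975 bases with Rnf214 (59.8 TPM in pup 1, 73.1 in pup 3) and 135 with the antisense gene Gm16536 (4.16 and 5.02 TPM). Ncstn shares 195 exon bases with Copa (127 and 132 TPM) and Aph1a 445 with Car14 (5.51 and 5.99 TPM). Reads in these stretches cannot be assigned to a strand from the tables, and their part in the levels was not tested.

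Genes that act around the secretases were almost all expressed. Of 44 such genes in 8 lists that had a row, 43 reached 1 TPM in each pup and 32 reached 10 TPM, beside 62.1% and 39.2% of protein-coding genes. The median gene stood at 27.0 TPM in pup 1 and 26.3 in pup 3. None of those tested differed by more than 0.5 between the pups, near the 3.18% of all genes.

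Cytoplasmic adaptors of App were high, with 7 of 7 at 10 TPM or more and a median of 60.3 TPM in pup 1 and 71.8 in pup 3. Apbb1, the neuronal adaptor Fe65 that binds the App tail, led them at 304 ± 17.8 TPM, and Apba1, a neuronal Mint protein, was lowest at 13.8 ± 1.05. Among sorting genes (9 of 9 at 1 TPM or more) the reticulon gene Rtn3, whose product binds Bace1, was highest at 626 ± 5.17 TPM. Sorl1, the receptor that returns App from endosomes, was lowest at 5.93 ± 0.269. Of the tetraspanin genes that escort Adam10 to the surface, 5 of 6 were at 1 TPM or more, led by Tspan17 at 91.6 ± 9.09, and Tspan10 gave 0 counts in either pup, which allows up to 3.

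Inhibitors and modulators were led by Itm2b, whose product binds App and limits its cleavage, at 679 ± 17.7 TPM, and Reck, an inhibitor of Adam10, was lowest at 3.27 ± 0.0919. The Itm2b level was close to that of Aplp1. Amyloid-beta degrading enzymes were lower, with a median of 17.9 TPM in both pups. Ide, the insulin-degrading enzyme, led them at 28.7 ± 1.49, and Mme, neprilysin, was at 1.77 ± 0.191. Among other substrates of the secretases, 8 of 8 were at 1 TPM or more, from Chl1, an adhesion molecule cut by Bace1, at 115 ± 1.03 to the Notch1 receptor at 6.14 ± 0.453.

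**Figure D5:**
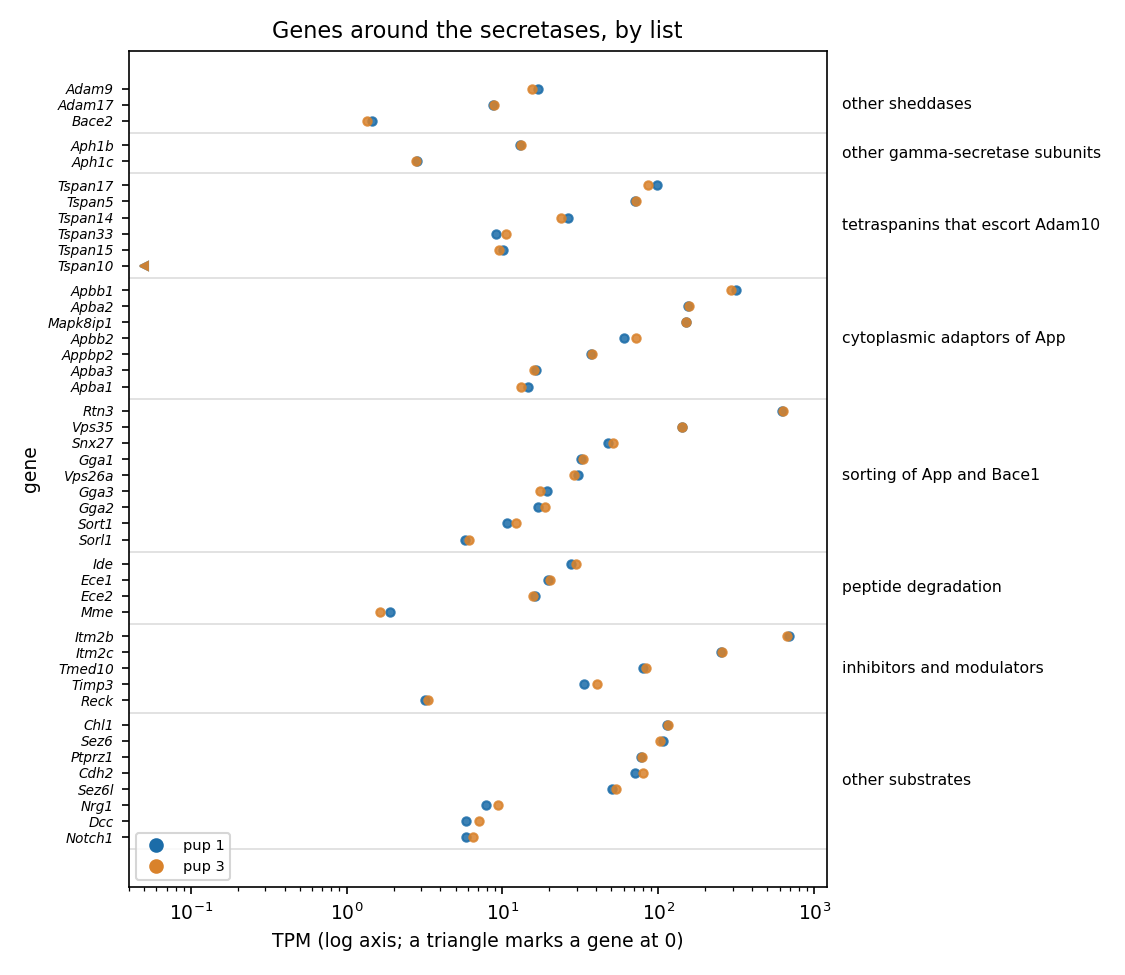
TPM (log axis) of 44 genes in 8 lists, in pup 1 (blue) and pup 3 (orange), sorted within each list. Rtn3 and Itm2b lie highest, Bace2 and Mme are the lowest genes above 0, and Tspan10 is marked at 0 by a triangle.

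The members are spread over the genome but not evenly. Aplp2, Bace1 and Adam10 lie on chromosome 9 with Aph1b and Aph1c, Aplp1 and Psenen on chromosome 7, and Ncstn and Psen2 on chromosome 1. RefSeq promoter windows (build GRCm38.p6) were found for 8 of the 9, with 10 windows in all. The 250 bases before each RefSeq start were searched on both strands for a GC box (GGGCGG) and a TATA box (TATAAA). A RefSeq start can lie within the M21 span of its gene. Both Psen2 windows and the Psenen window at chr7:30563205-30563454 lay wholly inside that span. The Ncstn and App windows overlapped it in part. A GC box was present in 6 of 10 windows and in 32.7% of 32851 windows in the table, and a TATA box in 0 of 10 and in 12.37%. Median GC content was 63.0% in the members' windows and 52.4% over all. The App window (chr16:85173708-85173957, minus strand) is shown because App names the family, with its GC box in capitals. On that strand the M21 span of App starts at chr16:85173766, so this GC box lies inside the annotated gene.
App promoter: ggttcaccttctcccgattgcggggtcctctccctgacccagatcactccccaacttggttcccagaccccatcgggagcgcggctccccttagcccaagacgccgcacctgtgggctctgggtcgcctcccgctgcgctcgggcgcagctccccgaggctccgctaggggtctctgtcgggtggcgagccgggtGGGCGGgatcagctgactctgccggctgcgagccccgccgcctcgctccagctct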

How the data were processed

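Gene and transcript tables, 1 of each per library, were deposited by the authors and made with build mm10 and GENCODE annotation M4, per the deposited text record, and the program is not given in the sources used here. The deposited expected counts are estimated reads per feature. The deposited TPM column is scaled by the authors over every row of a table. The deposited interval bounds (recorded as a signal) enclose the posterior mean TPM at a credibility level that is not stated, so an interval need not hold the maximum-likelihood TPM. The deposited transcript tables give the percent of a gene's TPM held by each transcript. FPKM was not used.

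Symbols, coordinates and protein lengths came from GENCODE M21 (same build), matched without version. Where a symbol had several identifiers, the one with the highest mean count was used. Ratios and differences were log2 of TPM + 0.1, and differences were read where expected counts averaged at least 100. Counts were rounded for edgeR 4.0.16 (TMM) and DESeq2 1.42.0 (size factors) under R 4.3.3. Proteins were aligned globally with Biopython 1.88 (BLOSUM62). The log2 formula of the differences was checked on simulated counts with known changes, divided by library size. That check did not involve TPM or effective length. All 9 members, genes of preset pairs, the highest and lowest gene of each pathway list, any pathway gene past 0.5 between pups, the highest marker of a list and the 3 genes nearest to App were to be named, and other markers were named after their values were seen. The members and lists were chosen with earlier results of these data known. The 2 libraries are separate animals per the labels.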

Additional observations from a re-analysis of the deposited data

How the results depend on the processing

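The count of 4 genes at 100 TPM or more was the same with posterior mean TPM, with TPM over nuclear protein-coding genes and in either pup alone. Of the 17 pairs, 11 were apart in the main setting, 10 with a pseudocount of 1, 9 with counts not divided by length, 11 with posterior mean TPM and 10 to 12 in a single pup, where no SD enters. Counts not divided by length ended the calls of Aplp2 over Aplp1 (-0.78), Psenen over Aph1a and Psenen over Psen2, and turned Psenen over Ncstn to -1.74 and Aph1a over Aph1b to -0.19, since these genes differ in length. Neighbours in order numbered 6 in the main setting, 7 with posterior mean TPM and 7 to 8 in a single pup. With counts not divided by length they numbered 7, but in another ranking, in which Psenen moved from rank 4 to rank 7, behind Ncstn, Bace1 and Adam10. Intervals were not compared in that setting, so its 9 pairs and 7 neighbours were called under a looser rule than in the main setting. No member passed 0.5 between the pups under any alternative run. The count of all genes past 1, 42 in the main setting, was 27 with a pseudocount of 1, 379 with the minimum mean count lowered to 10 and 2363 with no filter, and that past 0.5, 423 in the main setting, was 271 with either count scaling, 230 with a pseudocount of 1, 1912 with the minimum lowered to 10 and 6093 with no filter. Of the list genes, 43 passed 1 TPM and 32 passed 10. No paired analysis was possible because there is 1 group. Psen2 and Aph1a, whose shares moved most between pups, had the fewest expected counts of the 9 genes, 758 to 1387 per gene and pup, and what limits those shares was not tested.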

Other observations

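Markers of other cell types show what else the tissue RNA held beside the genes described. Radial glia and astrocyte markers were led by Fabp7 at 2373 ± 51.6 TPM, precursors of oligodendrocytes by Olig1 at 148 ± 7.78, microglia by C1qb at 58.2 ± 4.90 and endothelium by Cldn5 at 108 ± 13.3. Blood markers were high, summing to 1876 TPM in pup 1 and 2016 in pup 3, and were led by Hba-a2 at 998 ± 70.0. Myelin markers were low, with Mbp at 20.6 ± 0.643 and Opalin, a protein of mature myelin, at 0 counts in pup 1 and 2 in pup 3. Which of these cells the precursor and secretase transcripts came from was not tested.

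The difference of Bace1 between the pups, 0.15 on the log2 TPM scale, was made up of transcripts that moved in both directions. The one annotated as a retained intron measured 10.3 TPM in pup 1 and 14.5 in pup 3, and the 501-residue form at 18.3 and 21.1. The 467-residue form was at 8.80 and 6.09. The deposited intervals overlapped between the pups for all 3 transcripts.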
